A study of Mus musculus with 16 samples.

Results

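Tuft cells were followed through 10 of their genes, Pou2f3, Dclk1, Trpm5, Gnat3, Avil, Alox5ap, Ptgs1, Sh2d6, Il25 and Rgs13, among the 54532 genes counted in 16 cultures of differentiated mouse enteroids. The genes were taken by name from the table of counts. Enteroids are epithelial cultures grown from the crypts of the jejunum, and each of 4 groups held 4 cultures, described as coming from 4 mice. MYO5BΔIEC enteroids carried Vil-CreERT2;Myo5b-flox/flox, and MYO5B(G519R) enteroids carried Vil-CreERT2;Myo5b-flox/G519R, so that 1 allele of the latter stays in place with a point mutation in the motor protein myosin Vb. In both lines 4-OH-tamoxifen (1 µM, 24 h) induced a Cre recombinase that the villin promoter confines to intestinal epithelium, after which the medium was changed for one that drives differentiation. The third group was MYO5BΔIEC enteroids given Compound-1, a synthetic agonist of the lysophosphatidic acid receptor LPAR5, at 100 nM for 2 days. The MYO5BΔIEC group received its vehicle (PBS). The fourth group is labelled control with no treatment. Its genotype is not spelled out in the labels. A legend of the study has the controls as littermates. The methods name mice of the MYO5BΔIEC genotype, Cre included, as the source of the control enteroids too, with cultures given tamoxifen or its solvent. Recombinase activity and drug thus cannot be told apart from loss of MYO5B in a comparison with control. Whether groups share mice is not given in the labels, and the main tests took the cultures as unpaired.

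Tuft cells are rare secretory cells of the intestinal epithelium that sense the contents of the gut lumen. Their differentiation depends on the transcription factor POU2F3. Taste-type receptors signal through G proteins, phospholipase C and calcium release to the cation channel TRPM5, and the cells answer with interleukin-25, leukotrienes and prostaglandins, which act on immune cells of the mucosa.

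The libraries held between 27804968 and 40101729 counted reads, and a count of 0 is compatible with up to 3 reads, or 0.0736 to 0.111 CPM, for counting error alone. CPM are counts relative to library size, here after scaling by the trimmed mean of M values (TMM) across the 16 libraries. Markers of epithelium were abundant in every group, with Krt8 at a mean of 3762 CPM and Epcam at 1179 CPM. Of markers of fibroblasts, Col3a1, Dcn and Lum were at 0 in every culture and the 6 genes summed to at most 0.96 CPM. In MYO5B(G519R) against control the 1 of them that could be tested was higher (log2 fold change 2.39, edgeR adjusted p under 0.05). Of 8 leukocyte markers Cd53 and Lcp2 were at 0 throughout, the sum lay between 1.22 and 3.89 CPM, and Itgam made up 69.6% of it. Of 9 mast cell markers Cpa3, Tpsab1, Ms4a2 and Fcer1a were at 0, and Kit made up 81.3% of their sum, which was 20.9 ± 4.73 CPM (SD, n = 4) in control and 25.5 ± 1.75 in MYO5BΔIEC. Among them the protease gene Cma1 was higher than in control (mean 0.00831 CPM) in MYO5BΔIEC (0.944 CPM, edgeR adjusted p = 0.00351) and in treated cultures (0.472 CPM, edgeR adjusted p = 0.0246). Mcpt1, another protease gene, had means of 0.0259 CPM in control and 0.318 CPM in treated cultures (edgeR adjusted p = 0.0475). Macrophage markers, led by Cd14 and with Adgre1 and C1qb at 0, summed to 14.6 ± 1.37 CPM in control and to 27.7 ± 8.29 CPM in MYO5BΔIEC. Their sum was 24.3 ± 5.55 CPM in MYO5B(G519R) cultures and 39.6 ± 14.3 CPM in treated ones. Genes of neurons and glia, 69.3% of the sum from Ret, came to 6.66 ± 1.67, 15.7 ± 2.46, 11.7 ± 1.81 and 13.9 ± 2.97 CPM, with the groups in the order just used. The part of these genes in the results below was not tested.

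Control culture 1 and treated cultures 3 and 4 stood apart from the rest of their groups, though not in every measure. Control culture 1 had 3167 CPM summed over 8 enterocyte markers where the other controls had at least 12725, and its mean correlation with the other controls was 0.945 against 0.974 to 0.978 for each of those. Treated cultures 3 and 4 had 5936 and 4204 CPM summed over 7 goblet cell markers against 2272 and 1958 in treated cultures 1 and 2. In mean correlation within the group they did not stand apart, at 0.966 and 0.978 beside 0.971 and 0.967 for treated cultures 1 and 2. The share of mitochondrially encoded reads lay between 6.41% and 10.4% in control. It was mostly lower elsewhere, with MYO5BΔIEC between 4.16% and 6.63%, MYO5B(G519R) between 4.20% and 5.37%, and treated cultures between 3.79% and 6.11%. Library sizes without these reads were among the alternatives run, and Rgs13 kept its call there in each comparison with control. The part of this share in the comparisons with control was otherwise not tested. The targeted gene, Myo5b, averaged 189 CPM in control (SD 29.9, n = 4), against 128 (SD 31.0) in MYO5BΔIEC, 150 (SD 17.0) in the MYO5B(G519R) group and 111 (SD 26.8) after treatment. The difference between MYO5BΔIEC and control missed the threshold given below, at a log2 fold change of -0.55 with an edgeR adjusted p of 0.0503, and passed it in 2 of 8 fits without 1 culture and in 5 of 10 other settings, DESeq2 among them (adjusted p = 0.0336), with values down to -0.80 once the trend with gene length was removed. Myo5b fell in treated enteroids (-0.77, edgeR adjusted p = 0.0146), a call lost without treated culture 4, and was at -0.33 in MYO5B(G519R) (edgeR adjusted p = 0.109), where it passed without control culture 1 (edgeR adjusted p = 0.0286) and with the length trend removed (edgeR adjusted p = 0.0276). Which exons are deleted is not given in the labels, and counts were summed over the whole gene.

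Groups were compared in pairs with the quasi-likelihood test of edgeR, adjusted over every gene that reached 10 counts in 2 or more of the 8 libraries, at a threshold of 0.05. In each comparison 8 of the 10 genes could be tested. In MYO5BΔIEC, 2 of these 8 fell against control (Pou2f3 and Rgs13) and none rose, where 13.8% of the 17951 genes tested fell. In MYO5B(G519R), 3 of 8 fell (Pou2f3, Rgs13 and Alox5ap), where 13.7% of 17829 fell. In treated enteroids, 5 of 8 fell against control (Pou2f3, Rgs13, Alox5ap, Trpm5 and Dclk1), where 13.7% of 17937 fell. All 8 log2 fold changes were below 0 in each of these comparisons, as were 50.6%, 53.3% and 52.5% of those of all genes, with medians of -0.79, -0.51 and -1.14 beside medians of -0.01, -0.05 and -0.05 over all genes tested. Without control culture 1 the log2 fold changes of Dclk1 and Trpm5 were above 0 in both mutant groups, that of Sh2d6 was above 0 in MYO5B(G519R) (0.11) and that of Avil in treated enteroids (1.14). With that culture left out 2, 1 and 3 of the 8 fell, where 7474, 8146 and 7459 of all genes passed in either direction. With every culture kept those totals were 4910, 4778 and 5275. Without treated cultures 3 and 4 only Rgs13 fell in the last comparison, where 339 of all genes still passed. The 3 comparisons share the 4 control cultures, so that they are not independent of each other. In bulk RNA, fewer tuft cells and less RNA per tuft cell cannot be told apart.

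Between treated and vehicle MYO5BΔIEC enteroids none of the 8 genes passed the threshold, as was true of all 18037 genes tested (0%). At an unadjusted edgeR p under 0.05, Dclk1, Trpm5 and Rgs13 were lower and Avil was higher, where 4.1% of all genes were lower and 3.42% higher. With DESeq2 none of the 8 passed, where 0.536% of all genes did. MYO5B(G519R) and MYO5BΔIEC did not differ in any of the 8 genes at the threshold, with log2 fold changes from -0.10 to 0.32, and 0.00557% of all genes were lower in MYO5B(G519R). The 95% interval for Rgs13 in that comparison ran from -0.43 to 0.78 and that for Pou2f3 from -0.35 to 0.92.

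**Figure D1:**
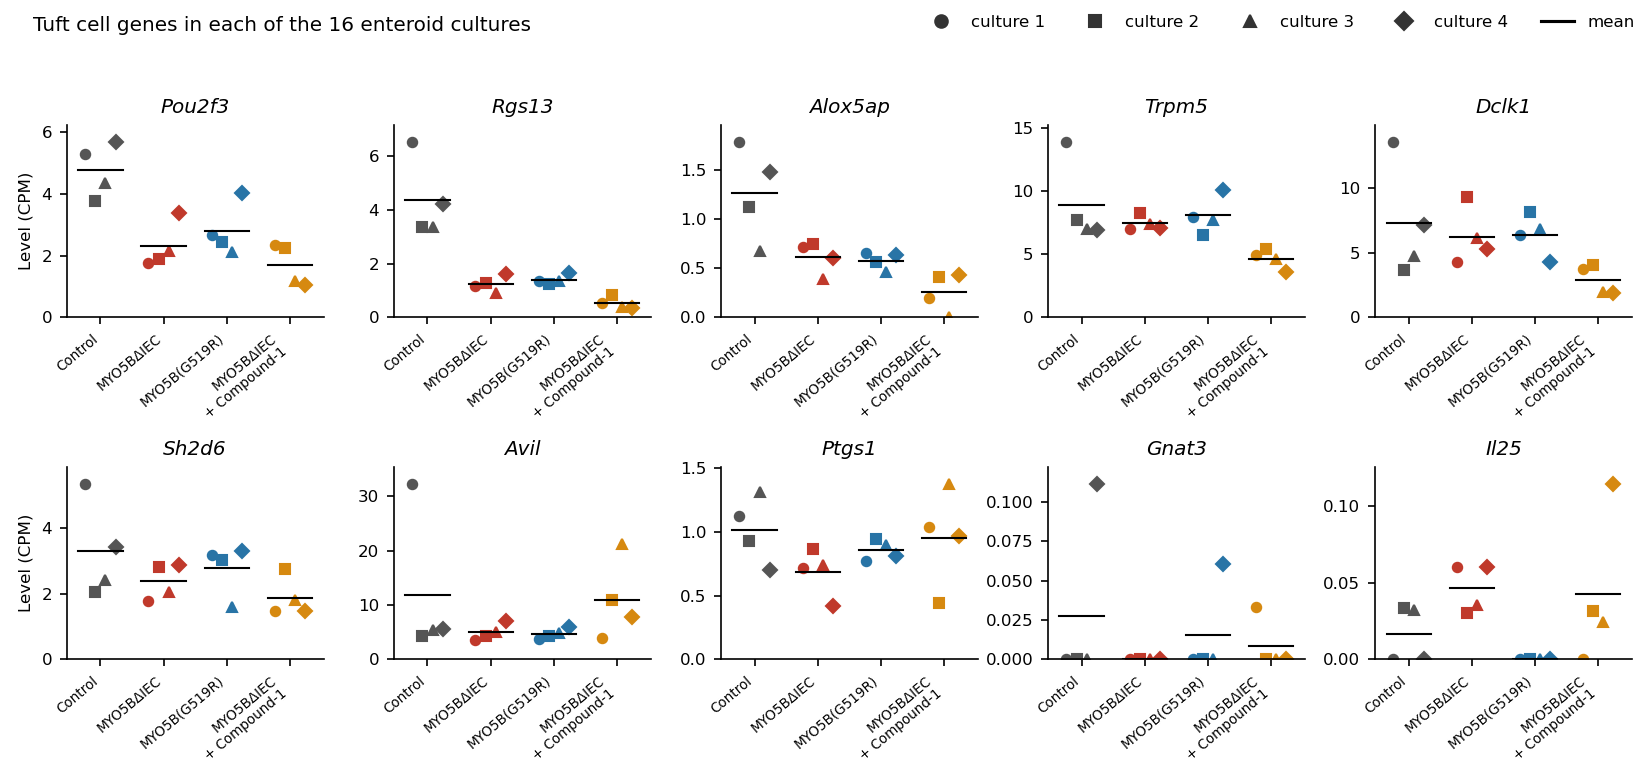
Level of each of the 10 tuft cell genes in CPM (vertical axis, linear from 0) in every culture, with 1 marker shape per culture number, 1 colour per group and a line at the mean of 4 cultures. All 4 controls lie above all cultures of the other groups for Rgs13, control culture 1 stands alone at 32.2 CPM for Avil, and Gnat3 and Il25 lie at or near 0.

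In GRCm38, the build of the files, Rgs13 (ENSMUSG00000051079) spans chr1:144138654-144177372 and Trpm5 (ENSMUSG00000009246) chr7:143069153-143094642, both on the minus strand. Dclk1 (ENSMUSG00000027797) spans chr3:55242364-55539068 and Avil (ENSMUSG00000025432) chr10:127000709-127020994 on the plus strand. The 250 bases before the start of these 4 are shown, because the first 3 were below vehicle in all 4 treated cultures and Avil was not. They are from RefSeq (GRCm38.p6), which gave an upstream window for 7 of the 10 genes and 2 starts for Dclk1, of which the longer transcript's is shown. Capitals mark CCAAT or its reverse complement.
Rgs13 upstream of its start, chr1:144177373-144177622, minus strand: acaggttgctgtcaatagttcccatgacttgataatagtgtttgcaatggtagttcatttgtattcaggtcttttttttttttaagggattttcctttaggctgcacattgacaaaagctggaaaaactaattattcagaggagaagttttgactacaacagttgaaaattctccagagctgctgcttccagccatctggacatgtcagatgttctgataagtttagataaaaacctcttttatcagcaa
Trpm5 upstream of its start, chr7:143094643-143094892, minus strand: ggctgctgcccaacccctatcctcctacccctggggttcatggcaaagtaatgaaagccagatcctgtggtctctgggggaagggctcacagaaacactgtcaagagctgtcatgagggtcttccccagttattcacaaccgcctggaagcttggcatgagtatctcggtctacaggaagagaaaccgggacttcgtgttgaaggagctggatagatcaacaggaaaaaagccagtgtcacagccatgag
Dclk1 upstream of its start, chr3:55242114-55242363, plus strand: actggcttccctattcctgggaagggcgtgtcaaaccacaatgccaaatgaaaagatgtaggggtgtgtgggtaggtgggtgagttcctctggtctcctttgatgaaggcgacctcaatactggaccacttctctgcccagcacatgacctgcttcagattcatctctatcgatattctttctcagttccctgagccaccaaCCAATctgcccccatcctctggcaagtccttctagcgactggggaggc
Avil upstream of its start, chr10:127000459-127000708, plus strand: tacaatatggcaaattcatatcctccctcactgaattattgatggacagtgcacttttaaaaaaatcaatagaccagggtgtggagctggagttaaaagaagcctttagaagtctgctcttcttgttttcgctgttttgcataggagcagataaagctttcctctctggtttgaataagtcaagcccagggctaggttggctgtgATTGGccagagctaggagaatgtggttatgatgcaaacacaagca
The motifs searched, on both strands of the 8 windows, were ATGCAAAT, the octamer that POU factors bind, TATAAA and CCAAT, none of which overlaps another here. The octamer and TATAAA were in none of the 8 windows, and 1.6% and 12.4% of the 32851 windows of the same length held them. CCAAT was in 3 windows, those of Dclk1, Gnat3 and Avil, and in 33.8% of all windows. A match here describes letters, not binding. No window was given for Pou2f3, Alox5ap and Il25.

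Pou2f3 (ENSMUSG00000032015, chr9:43123939-43210369, minus strand) encodes the transcription factor on which the lineage depends. It was at 5.30, 3.76, 4.36 and 5.67 CPM in the control cultures and at 1.77, 1.89, 2.16 and 3.39 CPM in MYO5BΔIEC. MYO5B(G519R) cultures had 2.66, 2.43, 2.12 and 4.04 CPM, and treated cultures 2.35, 2.25, 1.18 and 1.06 CPM. Every MYO5BΔIEC and every treated culture lay below every control, as in 13.8% and 13.6% of all genes, while MYO5B(G519R) culture 4 lay above control culture 2. Relative to control, MYO5BΔIEC had a log2 fold change of -1.04 ± 0.27 (SE) at an edgeR adjusted p of 0.0166. MYO5B(G519R) had -0.76 ± 0.25 at an edgeR adjusted p of 0.0474, and treatment gave -1.48 ± 0.33 at an edgeR adjusted p of 0.00945. The call in MYO5BΔIEC was lost without culture 2 of that group or without control culture 4 (edgeR adjusted p = 0.0557 in each). For MYO5B(G519R) cultures the call stood when culture 4 was left out and was lost without any other single culture (edgeR adjusted p of 0.0539 to 0.125). In treated enteroids the call was kept without any 1 culture and lost without treated cultures 3 and 4 together (edgeR adjusted p = 0.0995). Against vehicle, the fold change on treatment was -0.46 (95% interval -1.25 to 0.33, edgeR adjusted p = 0.88).

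Rgs13, a regulator of G protein signalling found in tuft cells, fell the most of the 8 genes in each comparison with control. Control cultures had 6.52, 3.36, 3.36 and 4.22 CPM. MYO5BΔIEC cultures had 1.17, 1.26, 0.88 and 1.62 CPM, and MYO5B(G519R) cultures 1.34, 1.24, 1.36 and 1.66 CPM. Treated cultures had 0.54, 0.81, 0.37 and 0.34 CPM, which rest on 16, 26, 15 and 12 reads. The lowest control was thus above every culture of the other groups, and the highest treated culture was just below the lowest vehicle culture. Relative to control, MYO5BΔIEC had a log2 fold change of -1.81 ± 0.31 (SE) at an edgeR adjusted p of 0.00289. MYO5B(G519R) had -1.64 ± 0.27 at an edgeR adjusted p of 0.00348, and treatment gave -3.08 ± 0.38 at an edgeR adjusted p of 0.00398. These calls held without any 1 culture, with ranges of -1.96 to -1.55, -1.75 to -1.35 and -3.39 to -2.80, and the last held without treated cultures 3 and 4 (-2.66). Between treated and vehicle enteroids the log2 fold change was -1.29 (95% interval -2.17 to -0.42, edgeR adjusted p = 0.547), and 1.27% of all genes had all 4 treated cultures below all 4 vehicle cultures, as did Rgs13, Trpm5 and Dclk1. Without treated cultures 3 and 4 it was -0.89.

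Trpm5 encodes the cation channel at the end of the taste-type cascade. It was at 13.9, 7.74, 7.02 and 6.96 CPM in control and at 7.01, 8.30, 7.43 and 7.05 CPM in MYO5BΔIEC. MYO5B(G519R) cultures had 7.94, 6.54, 7.75 and 10.1 CPM, and treated cultures 4.96, 5.39, 4.61 and 3.57 CPM. Control and both mutant groups overlapped, and all treated cultures lay below all other cultures. Differences from control were -0.25 in MYO5BΔIEC and -0.14 in MYO5B(G519R) on the log2 scale, neither past the threshold. Without control culture 1 both turned positive, at 0.05 and 0.19. In treated enteroids Trpm5 fell by 0.94 on the log2 scale against control (SE 0.27, edgeR adjusted p = 0.0268). That call was lost without treated culture 3 (edgeR adjusted p = 0.06) or 4 (edgeR adjusted p = 0.0831) and kept without control culture 1, where the value was -0.62. Against vehicle the value was -0.72 (95% interval -1.17 to -0.26, edgeR adjusted p = 0.532, DESeq2 adjusted p = 0.0607). Without treated cultures 3 and 4 it was -0.55.

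Within the coordinates of Trpm5 lies Tssc4 on the opposite strand, at a mean of 19.6 CPM, and Tsfm, at 37.2 CPM, overlaps part of Avil from the opposite strand. The library kit as described does not mark strand, so reads from the shared stretches cannot be told apart. Tssc4 was at 11.9, 26.6, 25.0 and 19.7 CPM in treated and 20.7, 16.3, 10.5 and 20.4 CPM in vehicle cultures. Those ranges overlap, unlike those of Trpm5.

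Dclk1, a kinase of the microtubule-bound doublecortin family, is the usual marker by which tuft cells are counted in tissue. Control cultures had 13.6, 3.69, 4.77 and 7.15 CPM, and MYO5BΔIEC cultures 4.31, 9.32, 6.12 and 5.28 CPM. MYO5B(G519R) cultures had 6.39, 8.17, 6.83 and 4.25 CPM, and treated cultures 3.75, 4.04, 1.99 and 1.85 CPM. Control and mutant groups overlapped throughout, and each treated culture was below each vehicle culture, while 1 control (3.69 CPM) lay among the treated. Differences from control, as log2 fold changes, were -0.21 in MYO5BΔIEC (95% interval -1.08 to 0.66) and -0.19 in MYO5B(G519R) (95% interval -1.04 to 0.66), and without control culture 1 these became 0.28 and 0.34. Treated enteroids differed from control by -1.33 ± 0.43 (SE) on that scale, at an edgeR adjusted p of 0.0416. Leaving out treated culture 1, 3 or 4, or control culture 1, 3 or 4, ended that call (edgeR adjusted p of 0.0528 to 0.112), and without control culture 1 the value was -0.82. Against vehicle it was -1.14 (95% interval -1.90 to -0.39, edgeR adjusted p = 0.532, DESeq2 adjusted p = 0.0935), and -0.71 without treated cultures 3 and 4. Counts per gene do not separate the 2 starts of Dclk1.

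**Figure D2:**
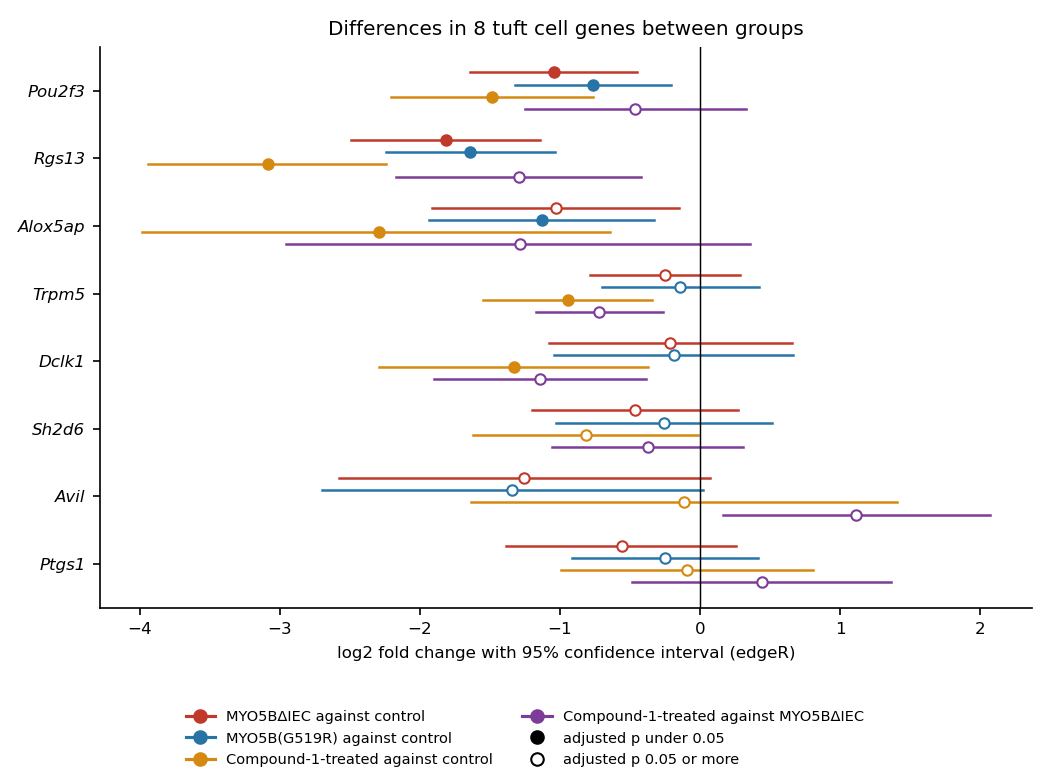
Log2 fold change (horizontal axis) of the 8 genes that could be tested, as points with 95% confidence intervals from edgeR, in 4 comparisons of 4 against 4 cultures, filled where the adjusted p was under 0.05. Rgs13 lies farthest to the left in each comparison with control, at -1.81, -1.64 and -3.08, and Avil is on the right of 0 only between treated and vehicle enteroids, at 1.12.

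A pair of genes serves the synthesis of eicosanoids. Alox5ap (ENSMUSG00000060063, chr5:149264767-149288153, plus strand) encodes the protein that presents arachidonic acid to 5-lipoxygenase. It had 1.79, 1.13, 0.67 and 1.48 CPM in control and 0.72, 0.75, 0.39 and 0.60 CPM in MYO5BΔIEC. MYO5B(G519R) cultures had 0.66, 0.56, 0.46 and 0.63 CPM, all just below the lowest control. Treated cultures had 0.20, 0.41, 0 and 0.43 CPM, and the count of 0 in culture 3 allows up to 0.0736 CPM. These levels rest on 0 to 57 reads a culture. MYO5BΔIEC missed the threshold, at a log2 fold change of -1.03 ± 0.40 (SE) and an edgeR adjusted p of 0.0779. MYO5B(G519R) had -1.13 ± 0.36 at an edgeR adjusted p of 0.0427, and treatment gave -2.29 ± 0.75 against control at an edgeR adjusted p of 0.0417. The first of these calls was kept without control culture 3 and lost without each of the other 7 cultures (edgeR adjusted p of 0.0648 to 0.108). The second was kept without treated culture 2 or 3 and lost without each of the other 6 (edgeR adjusted p of 0.0578 to 0.0952).

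Ptgs1 (ENSMUSG00000047250, chr2:36230426-36252272, plus strand), the cyclooxygenase that is made constitutively, passed in no comparison. Control cultures had 1.13, 0.93, 1.31 and 0.70 CPM, and MYO5BΔIEC cultures 0.72, 0.87, 0.74 and 0.42 CPM. MYO5B(G519R) cultures had 0.78, 0.95, 0.90 and 0.81 CPM, and treated cultures 1.04, 0.44, 1.37 and 0.97 CPM. The 4 ranges overlap. Its log2 fold change was -0.56 in MYO5BΔIEC against control (95% interval -1.38 to 0.26) and 0.44 in treated against vehicle enteroids (95% interval -0.48 to 1.37).

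Avil encodes advillin, an actin-bundling protein of the villin family in the apical tuft. It was at 32.2, 4.29, 5.38 and 5.48 CPM in control, so that culture 1 stood far above the other controls. MYO5BΔIEC cultures had 3.56, 4.20, 5.03 and 6.96 CPM, and MYO5B(G519R) cultures 3.70, 4.26, 4.81 and 5.94 CPM. Treated cultures had 3.82, 10.8, 21.3 and 7.73 CPM, 3 of them above every vehicle culture. As log2 fold changes the mutant groups differed from control by -1.25 (MYO5BΔIEC, edgeR adjusted p = 0.144) and -1.34 (MYO5B(G519R), edgeR adjusted p = 0.132). Without control culture 1 these were -0.03 and -0.08. Against vehicle, treated enteroids had a value of 1.12 (95% interval 0.16 to 2.07, edgeR adjusted p = 0.602), and 0.55 without treated cultures 3 and 4. In treated against control enteroids it was -0.11, and 1.14 without control culture 1 (edgeR adjusted p = 0.0832). Tsfm, whose reads cannot be parted from those of Avil where they overlap, was at 34.2 CPM in control culture 1 and between 32.0 and 37.0 CPM in the other controls.

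Sh2d6 (ENSMUSG00000052631, chr6:72513644-72521634, minus strand), an SH2 domain adaptor protein, was at 5.33, 2.06, 2.40 and 3.41 CPM in control. MYO5BΔIEC cultures had 1.77, 2.82, 2.05 and 2.88 CPM, and MYO5B(G519R) cultures 3.16, 3.02, 1.60 and 3.29 CPM. Treated cultures had 1.47, 2.76, 1.79 and 1.48 CPM, below the control range in 3 of 4. No comparison passed the threshold, and the difference farthest from 0 was -0.81 in treated against control enteroids (SE 0.36, edgeR adjusted p = 0.114).

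Gnat3 and Il25 could not be tested. Gnat3 (ENSMUSG00000028777, chr5:17962549-18019834, plus strand), which encodes the taste G protein subunit gustducin, had 6 reads in all 16 libraries, 3 of them in control culture 4. It was at 0 in all 4 MYO5BΔIEC cultures. Il25 (ENSMUSG00000040770, chr14:54932695-54935837, plus strand), the cytokine by which tuft cells alert type 2 innate lymphoid cells, had 14 reads, of which 2 were in control, 0 in MYO5B(G519R), 6 in MYO5BΔIEC and 6 in treated cultures. At this depth no difference was detectable for either gene. The genes of gustducin and interleukin-25 were thus at or near the floor in cultures where Trpm5, Pou2f3 and Avil were read in every library.

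Levels can be compared between genes per length, in FPKM. In control, Avil had a mean of 3.42 FPKM, Rgs13 2.57, Sh2d6 1.86, Pou2f3 1.5, Trpm5 1.36, Alox5ap 0.871, Dclk1 0.466 and Ptgs1 0.256, and each of these overlapped its neighbour in its range over 4 cultures. Gnat3 and Il25 followed at 0.0196 and 0.0149 FPKM, below the range of Ptgs1. The first place of Avil rested on control culture 1, at 9.38 FPKM, and without it Rgs13 came first (2.13 FPKM), followed by Sh2d6 (1.46) and by Pou2f3 and Avil (1.44 each). Over all 4 controls Rgs13 stood at rank 2 in control, at rank 4 in MYO5BΔIEC (0.741 FPKM) and at rank 5 in MYO5B(G519R) (0.841) and treated enteroids (0.306). Trpm5 stood at rank 5 in control and at rank 3 in MYO5BΔIEC (1.16 FPKM), MYO5B(G519R) (1.26) and treated enteroids (0.713). In treated enteroids Avil was again first, at 3.19 ± 2.23 FPKM, with a range that overlapped that of Sh2d6 at 1.06 ± 0.338.

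With the mean of each group taken off, all 21 pairs among 7 of the 8 genes had a Pearson's r above 0 across cultures, and 19 did without control culture 1. It was 0.76 for Rgs13 and Sh2d6, 0.75 for Rgs13 and Trpm5, 0.68 for Rgs13 and Pou2f3, and 0.11 for Avil and Alox5ap. Ptgs1 had r between -0.57 (with Pou2f3) and 0.09 (with Avil). The points are the same 16 libraries in each case, and control culture 1 was the highest control in most of these genes. Without it r was 0.66, 0.59 and 0.76 for the first 3 pairs, -0.23 for Avil and Alox5ap, and -0.08 for Avil and Dclk1 (0.33 with it). Of 13539 other genes with a mean of at least 1 CPM, those whose levels over 16 libraries had the highest mean r with the 8 genes were Lrmp (0.627), Asph (0.626), Vav1 (0.625), Tinag (0.610) and Sh2d7 (0.608). With group means taken off, these were Ldlrad3 (0.568), Cyb5r1 (0.564), Marcks (0.562), Fntb (0.562) and Desi1 (0.560). By that measure the mean r of each of the 8 genes with the other 7 ran from -0.28 (Ptgs1) to 0.50 (Rgs13). How often pairs of other genes have an r above 0 was not tested.

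**Figure D3:**
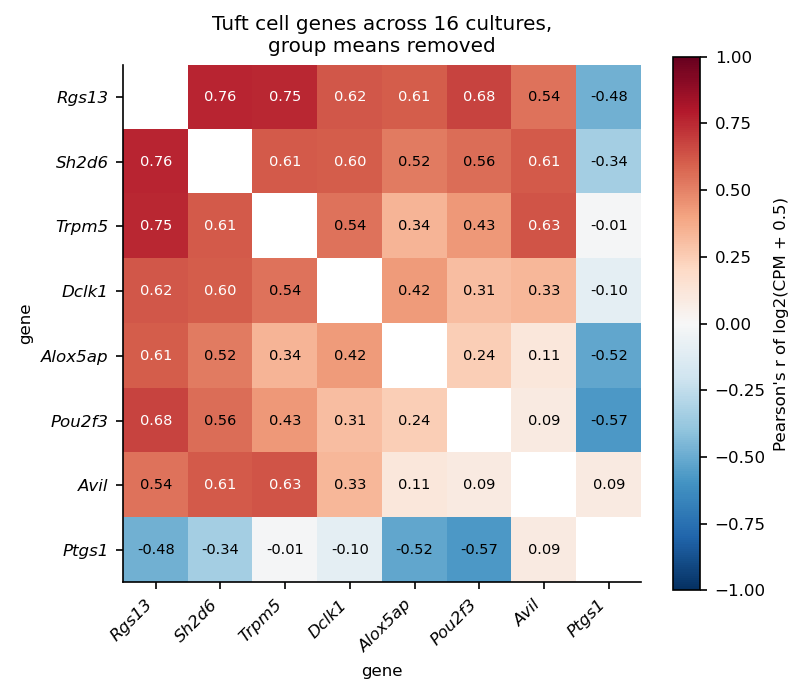
Pearson's r between the log2(CPM + 0.5) of each pair of the 8 genes over 16 cultures, with group means removed, from -1 (blue) to 1 (red) and printed in each square. The highest values are those of Rgs13 with Sh2d6 (0.76) and with Trpm5 (0.75), and Ptgs1 has values from -0.57 to 0.09 with the rest.

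A further 47 genes of tuft cells were listed by role, and many of them are also made by other cells of the epithelium. In MYO5BΔIEC 3 of the 40 tested fell and 8 rose, beside 13.8% and 13.5% of all genes, and in MYO5B(G519R) 3 of 41 fell and 7 rose, beside 13.7% and 13.1%. In treated enteroids 9 of 39 fell and 8 rose against control, beside 13.7% and 15.7%. Without treated cultures 3 and 4 these counts were 0 and 1, where only 339 of all genes passed in either direction, against 5275 with every culture. The 1 that still rose was Il4ra (1.00, edgeR adjusted p = 0.0381). Between treated and vehicle enteroids none of 38 passed. Their median log2 fold changes were -0.27, -0.14, -0.50 and -0.23. The genes that rose were mostly abundant ones, such as Vil1 at a mean of 681 CPM, and several of those that fell were as low as the 8 genes above.

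In the receptor cascade, 6 of 10 genes could be tested against control. Itpr3, the calcium release channel downstream of phospholipase C, was at 143, 107, 98.1 and 87.9 CPM in control and at 283, 315, 276 and 203 CPM in MYO5BΔIEC, with every mutant culture above every control. It rose in MYO5BΔIEC (log2 fold change 1.31), MYO5B(G519R) (1.36) and treated enteroids (1.47), with edgeR adjusted p values of 0.00191, 0.0019 and 0.00458, and the last call was lost without treated cultures 3 and 4 (1.1, edgeR adjusted p = 0.0591). Plcb2, the phospholipase C of the cascade, moved the other way: it was at 3.13, 0.83, 0.74 and 0.96 CPM in control and at 0.50, 0.25, 0.42 and 0.06 CPM in treated enteroids. It fell there (-2.20, SE 0.67, edgeR adjusted p = 0.0327), a call lost without treated culture 2, 3 or 4 or control culture 1 or 4, and its value without control culture 1 was -1.43. In MYO5BΔIEC Plcb2 was at -1.09 (edgeR adjusted p = 0.128).

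Of 6 eicosanoid genes, Pla2g4a, the cytosolic phospholipase that frees arachidonic acid, fell in MYO5BΔIEC (-1.16, SE 0.26, edgeR adjusted p = 0.00921) and in treated enteroids (-0.72, edgeR adjusted p = 0.0329). It was at 40.9 CPM in control culture 1 and at 83.1, 81.5 and 90.1 CPM in the other controls, and at 36.6, 26.8, 25.2 and 43.6 CPM in MYO5BΔIEC. The call in treated enteroids was kept only without control culture 1 (-0.90). Hpgds, a prostaglandin D synthase, fell in treated enteroids (-1.09, SE 0.30, edgeR adjusted p = 0.0209), a call lost without treated culture 4 or control culture 3 or 4. Alox5, the lipoxygenase that ALOX5AP serves, rose in MYO5BΔIEC (2.34, SE 0.67, edgeR adjusted p = 0.0263), where cultures ran from 0.72 to 6.72 CPM. That call was lost without MYO5BΔIEC culture 2 or 3 or control culture 2, 3 or 4.

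Ptgs2, the inducible cyclooxygenase, had the largest difference of these 6 genes. It was at 1.07, 0.50, 0.26 and 0.44 CPM in control, at 0.96, 0.78, 0.67 and 1.59 CPM in vehicle and at 2.68, 1.57, 23.4 and 8.10 CPM in treated MYO5BΔIEC enteroids. Treated cultures 3 and 4 were the highest of all. It rose against control (3.97, SE 0.84, edgeR adjusted p = 0.0083), and without treated cultures 3 and 4 the value was 1.91 (edgeR adjusted p = 0.108). Against vehicle it was 3.12 (SE 0.74, edgeR adjusted p = 0.532), which passed with DESeq2 (adjusted p = 0.047) and in edgeR with no filter on low counts (adjusted p = 0.0428). Treated cultures 1 and 2 were at 2.68 and 1.57 CPM beside up to 1.59 CPM in vehicle. The size of the difference from vehicle thus rested mostly on treated cultures 3 and 4.

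Of 14 genes of cytokine and leukocyte-type signalling, 13 were tested against control. Il4ra, a receptor chain for interleukin-4 and interleukin-13, rose in MYO5BΔIEC (0.82, SE 0.13), MYO5B(G519R) (0.68, SE 0.15) and treated enteroids (1.24, SE 0.18), from 22.5, 21.7, 21.4 and 20.1 CPM in control to 40.4, 40.9, 37.5 and 32.0 CPM in MYO5BΔIEC. Plcg2, a phospholipase C of tyrosine kinase signalling, rose in the same 3 comparisons (0.88, 0.85 and 1.03), the last lost without treated cultures 3 and 4 (0.76, edgeR adjusted p = 0.0771). Vav1, a nucleotide exchange factor best known from leukocytes, fell in treated enteroids (-1.45, edgeR adjusted p = 0.031), a call lost without treated culture 1, 3 or 4 or control culture 1, 3 or 4. Vav1 was at 4.23, 1.33, 2.11 and 2.22 CPM in control and at 0.97, 1.22, 1.01 and 0.43 CPM in treated enteroids, all below every control. The 8 leukocyte markers summed to 1.22 to 2.53 CPM in control and 2.28 to 3.48 CPM in treated cultures, levels of the same size as that of Vav1, and their part in it was not tested.

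Among 7 transcription factors, Sox9 and Runx1 rose in all 3 comparisons with control and none fell. Sox9, which is also made by crypt cells, rose by log2 fold changes of 0.63, 0.60 and 0.81. Runx1 rose by 0.80, 0.73 and 1.25 in the same order, and was at 9.90, 6.48, 6.92 and 6.15 CPM in control and 14.7, 13.7, 24.6 and 16.9 CPM in treated enteroids. The call for Runx1 was lost in MYO5BΔIEC without control culture 3 or 4, and in MYO5B(G519R) without its culture 2 or 3 or control culture 2, 3 or 4. In treated enteroids both calls were lost without treated cultures 3 and 4, at 0.69 for Sox9 and 0.97 for Runx1 (edgeR adjusted p = 0.0898 and 0.0806).

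Of 10 cytoskeletal and surface genes, Vil1, the microvillus actin bundler whose promoter drives the Cre, rose in MYO5BΔIEC (1.08), MYO5B(G519R) (0.90) and treated enteroids (1.07). Cd24a, a surface glycoprotein, fell by 0.75, 0.69 and 0.98 on the log2 scale in the same order. Cd24a was at 523, 621, 752 and 834 CPM in control and at 345, 409, 450 and 412 CPM in MYO5BΔIEC, with no overlap. Espn, an actin bundler, rose in both mutant groups (0.68 and 0.51), and Krt18, a keratin of simple epithelium, in treated enteroids (0.85). The calls for Vil1, Cd24a and Krt18 held without any 1 culture, but in treated enteroids all 3 were lost without treated cultures 3 and 4 (0.91, -0.77 and 0.74, edgeR adjusted p = 0.0754, 0.113 and 0.12). Those for Espn were lost without control culture 4, without MYO5BΔIEC culture 1, 2 or 3 and, in MYO5B(G519R), also without its culture 1, 2 or 3 or control culture 2 or 3.

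**Figure D4:**
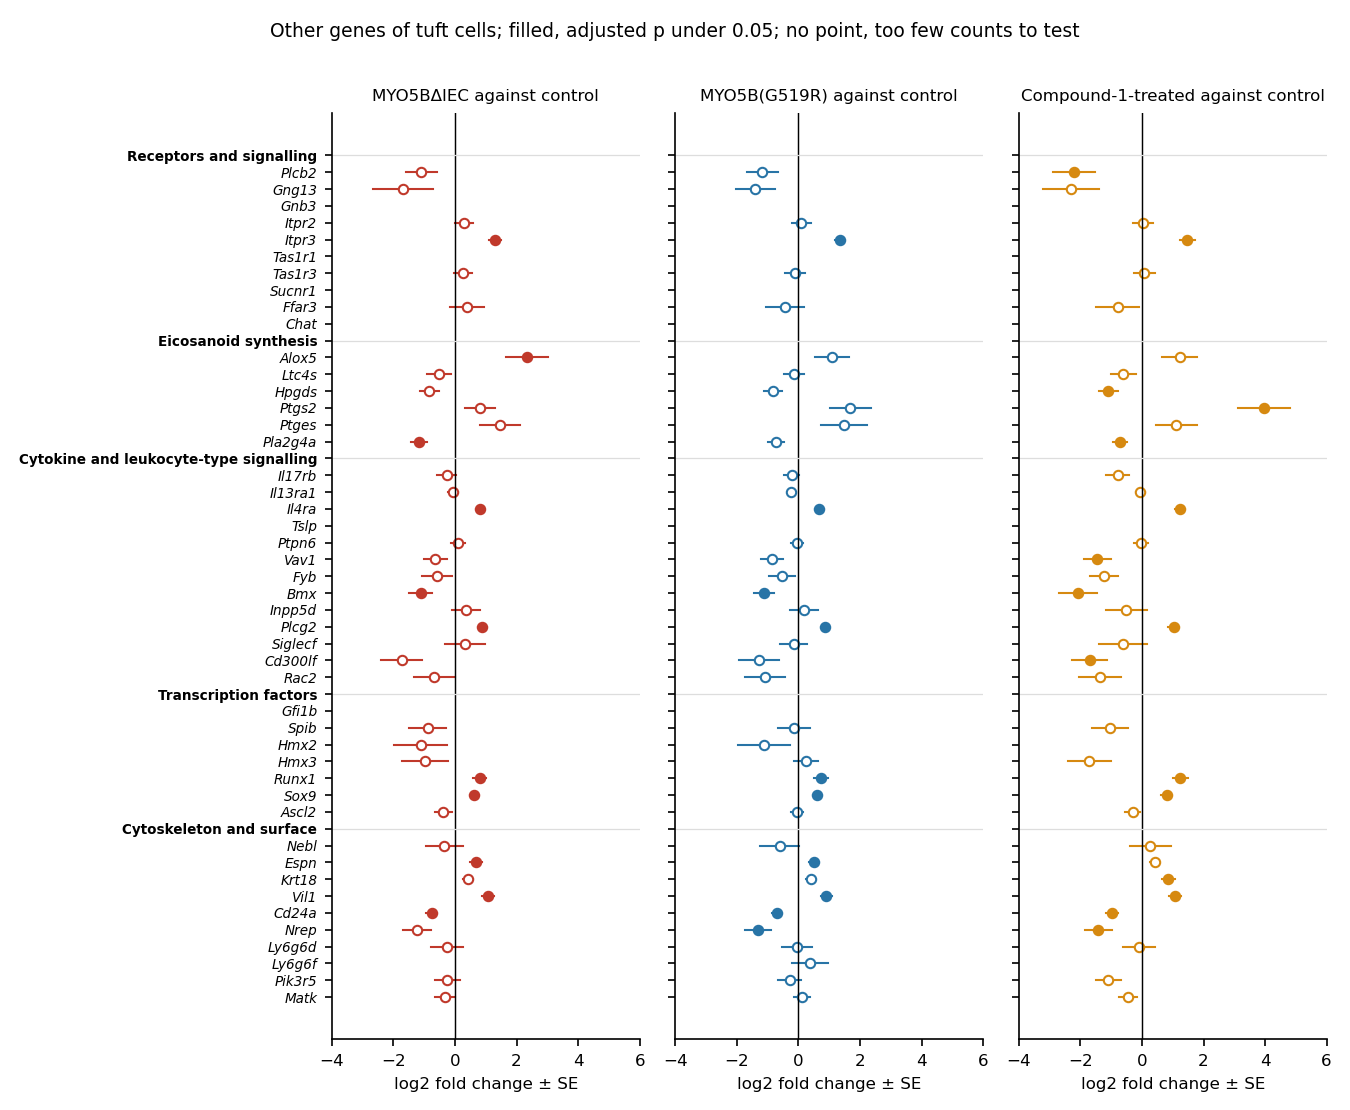
Log2 fold change against control (horizontal axis, with SE) of 46 of the further tuft cell genes in 5 groups by role, for MYO5BΔIEC, MYO5B(G519R) and treated enteroids, filled where the edgeR adjusted p was under 0.05 and left empty where a gene had too few counts to test. Itpr3, Il4ra, Plcg2, Sox9, Runx1 and Vil1 are filled to the right of 0 in all 3 panels, and Bmx and Cd24a to the left.

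Markers of other epithelial cells moved in the same comparisons, and their part in the tuft cell results was not tested. The counts of genes that passed stand beside 13.8%, 13.7% and 13.7% of all genes that fell and 13.5%, 13.1% and 15.7% that rose in MYO5BΔIEC, MYO5B(G519R) and treated enteroids, so that 1 gene of 6 or 8 is near the share of all genes. The 7 proliferation genes summed to 1896 ± 175 CPM in control and 1268 ± 144 CPM in MYO5BΔIEC, where 5 of them fell. MYO5B(G519R) cultures had 1585 ± 166 CPM and treated cultures 1222 ± 320 CPM, and 4 fell in each. The 6 stem cell genes, of which Olfm4 made up 67.9%, summed to 4508 ± 1647, 1524 ± 596, 2100 ± 586 and 1306 ± 540 CPM in the same order, and 1 of the 6 fell in each comparison with control. Paneth cell markers summed to 6193 ± 2017, 3802 ± 625, 3416 ± 436 and 3842 ± 641 CPM, and 2, 2 and 1 of the 6 fell against control. Enterocyte markers summed to 11129 ± 5511, 9006 ± 3145, 6667 ± 1288 and 5767 ± 1042 CPM, and 0, 1 and 3 of the 8 fell while 1, 0 and 1 rose. General epithelial markers summed to 5166 ± 462, 7463 ± 67.2, 7093 ± 736 and 9276 ± 1392 CPM, and 4, 3 and 4 of the 7 rose. Goblet cell markers, led by Fcgbp, summed to 1539 ± 149, 2104 ± 221, 2103 ± 198 and 3592 ± 1851 CPM, and 1, 2 and 1 of the 7 fell against control while 2 rose in each comparison. Enteroendocrine markers summed to 689 ± 27.5, 956 ± 294, 733 ± 113 and 977 ± 550 CPM, and 2, 1 and 1 of the 8 rose. The 6 genes that specify the secretory lineage, with Atoh1 and Dll1 among them, summed to 215 ± 29.1, 188 ± 35.7, 209 ± 16.8 and 202 ± 17.2 CPM, and none of them passed the threshold against control.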

How the data were processed

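RNA of 16 enteroid cultures was sequenced from polyadenylated transcripts. Per the methods and the submitters' processing notes, the authors aligned reads to GRCm38 with STAR 2.5 and counted reads per gene with HTSeq 0.6.1, whose whole-number counts were deposited and used here. The authors also deposited FPKM, which divide the counts by gene length and library size. How reads with several matches were counted and which strand setting was used is not given in the sources used here. Counts were tested with edgeR 4.0.16 in R 4.3.3 (TMM, quasi-likelihood F test, two-sided, Benjamini-Hochberg adjustment over all genes tested). Intervals are at 95%. Alternatives were DESeq2 1.42.0, limma 3.58.1 on log2(FPKM + 1) and log2(FPKM + 0.1), other library sizes and filters, a length offset, 1 fit of 4 groups, the replicate number as a block, and each culture left out in turn. Leaving out 2 treated cultures was chosen after seeing the data. The edgeR steps were tested on simulated data. Replicates of a group differed by more than counting noise. The p-values measure the spread between these cultures. Genes and lists were chosen with earlier results of these data known. All 10 genes are named. Of the other lists at most 4 genes each are named, those with the highest mean among genes past the threshold in any comparison, and Bmx was added after its values were seen. Some genes counted in these lists are not reported singly here.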

Additional observations from a re-analysis of the deposited data

Results flagged for a closer look

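Over the 8 tested genes, 3 of 32 pairs of a gene and a group held a culture far from the other 3. The cutoff used is set for about 1 in 20 among independent values with a normal spread. These genes share their libraries and were taken in CPM, so 3 of 32 cannot be judged against that rate. Avil in control culture 1 was at 32.2 CPM, where the nearest other control was at 5.48 CPM. Trpm5 in the same culture was at 13.9 CPM, with the nearest at 7.74 CPM. Sh2d6 in MYO5B(G519R) culture 3 was at 1.60 CPM, below the nearest at 3.02 CPM. Control culture 1 was also the highest control in Dclk1 (13.6 CPM), Rgs13 (6.52 CPM), Alox5ap (1.79 CPM) and Sh2d6 (5.33 CPM). The same culture had the lowest share of mitochondrially encoded reads among controls, 6.41%, and the other 3 groups ranged from 3.79% to 6.63%. The part of its makeup in these values was not tested.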

How the results depend on the processing

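Rgs13 kept its call in all 3 comparisons with control under every alternative run. Without 1 culture, 1 to 2 tuft cell genes fell in MYO5BΔIEC, 1 to 2 in MYO5B(G519R) cultures and 2 to 5 in treated ones, all against control. Other tuft cell genes that fell numbered 2 to 4, 1 to 5 and 1 to 6, and those that rose 5 to 12, 5 to 13 and 8 to 11. Genes called among all ranged from 2963 to 7474, 2880 to 8146 and 2957 to 7459, each highest without control culture 1. In MYO5B(G519R) 1 of the 8 genes fell with no filter, with all 4 groups in 1 fit and with limma at either pseudocount, where 1 other tuft cell gene fell, and DESeq2 gave 5 other genes that fell, as in MYO5BΔIEC. In treated enteroids against control limma gave 3 of the 8 genes and 4 others that fell. Without treated cultures 3 and 4, 1 of the 8 and 0 others fell and 1 other rose, where 339 of all genes passed. Against vehicle, DESeq2 and the fit with no filter each gave 1 other gene that rose, Ptgs2. With the replicate number as a block 4 other genes fell in treated enteroids against control and Avil was at 0.39. The numbers pair nothing in the labels. In no comparison did every same-numbered pair have a correlation of deviations over 0.1, but between MYO5B(G519R) and MYO5BΔIEC all 4 were above 0 (0.147, 0.0927, 0.526 and 0.614) and 3 of 4 numbers matched best with their own. The block left the count called there at 1.

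Signs turned as follows, the causes not being tested. Leaving out 1 culture gave log2 fold changes of -0.47 to 0.28 for Dclk1 and -0.35 to 0.046 for Trpm5 in MYO5BΔIEC against control. In MYO5B(G519R) against control it gave -0.41 to 0.34 for Dclk1, -0.26 to 0.19 for Trpm5 and -0.43 to 0.11 for Sh2d6, and each of these 5 was highest without control culture 1. In treated enteroids against control it gave -0.67 to 1.14 for Avil and -0.32 to 0.15 for Ptgs1, and limma gave 0.11 and 0.19 for Avil at a pseudocount of 1 and 0.1. Between MYO5B(G519R) and MYO5BΔIEC it gave -0.21 to 0.13 for Avil, -0.11 to 0.30 for Dclk1, -0.24 to 0.022 for Alox5ap and -0.0073 to 0.20 for Trpm5. Alox5ap, Ptgs1, Gnat3 and Il25 are limited by depth, with at most 57 reads in any culture. Rgs13 was as low outside control, with 16, 26, 15 and 12 reads in treated and 39, 42, 25 and 54 in MYO5BΔIEC cultures.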
